A study of Mus musculus with 29 samples.

Results

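The DNA sites bound by Atoh1 were compared between mouse cells that made Pou4f3 and Atoh1 and mouse cells that made Gfi1, Pou4f3 and Atoh1. Binding was read from peaks of chromatin immunoprecipitation with sequencing (ChIP-seq). The iP+A line carried transgenes for Pou4f3, Atoh1 and the fluorescent reporter Venus, and the iGPA line carried the same transgenes plus Gfi1. Every line derived from the parental mouse embryonic stem cells A2loxCre and switched its cassette on with doxycycline. Cells grew as embryoid bodies (floating clumps in which stem cells differentiate), received 2 µg/ml of the drug from day 4 and were collected on day 6, after 48 h. Atoh1 was pulled down through a FLAG tag, so all Atoh1 values here are of the tagged transgene product made from an inducible promoter and not of a protein at its natural level. Each Atoh1 list came from 2 replicates that were merged before peaks were called, against 2 merged input libraries of the same line. Gfi1 was pulled down in iGPA with an antibody to the protein, in 1 library. The iP+A list held 18949 Atoh1 peaks and the iGPA list 26231, of 175162 peaks in the 9 lists of the series, which comprised 29 samples.

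A window of 300 bp was laid around each peak summit, and windows that shared at least 1 bp were joined into 1 site. This gave 33831 Atoh1 sites, sorted into 3 classes by the lists that reached them. There were 10807 shared sites (31.9% of all), 7938 sites in the iP+A list alone (23.5%) and 15086 sites in the iGPA list alone (44.6%). The classes are called shared, iP+A only and iGPA only. Absence from a list means that no peak was kept there, not that Atoh1 was absent. Since replicates were merged before calling, no value has a spread between replicates and no p-value was computed. Shares carry exact Clopper-Pearson 95% intervals, and differences between shares carry Newcombe 95% intervals, which cover counting error only and treat neighbouring sites as independent. The agreement over chromosomes 1 to 19 and X (20 in all) is given as a second description of the spread. The presence of Gfi1, the line and the depth of its libraries changed together between the lists, so their parts in any difference cannot be told apart.

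Atoh1 is a basic helix-loop-helix transcription factor that drives the formation of inner ear hair cells and of several classes of neurons. Proteins of this family bind the E-box, written CANNTG, and the letters in its middle differ in how well each family member accepts them. A longer consensus around the E-box, known as the Atoh1 E-box associated motif (AtEAM), was described from Atoh1 binding in the cerebellum. Pou4f3 is a POU-homeodomain factor needed for hair cell survival that binds AT-rich DNA. Gfi1 is a zinc finger factor with a SNAG domain, best known as a repressor in blood and needed in hair cells. The Notch pathway, in which Dll and Jag ligands signal through Notch receptors to Hes and Hey repressors, limits how many cells become hair cells or neurons.

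Sequences around summits of each class are given first. Each runs 50 bases to either side of a summit on the mm9 forward strand, read from the NCBIM37 genome (the same assembly), with every E-box and every Pou4f or Gfi1 pattern in capitals. The first 10 lie nearest to genes of lists described below, in introns, in intergenic DNA or within 1 kb of a start. They are shown because each of the shared and iGPA only summits holds at least 1 E-box in these bases, while the iP+A only summit at Tmc1 holds none and the one at Runx1 holds 1. In 250 bp windows an E-box of any kind was present at 92.4% of shared, 77.6% of iP+A only and 88.9% of iGPA only summits, against 73.2%, 73.3% and 74.0% in flanking windows.
Nhlh1, shared, chr1:173987890-173987990: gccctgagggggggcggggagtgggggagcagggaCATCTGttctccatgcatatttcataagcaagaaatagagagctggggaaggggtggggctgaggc
Hes6, shared, chr1:93310760-93310860: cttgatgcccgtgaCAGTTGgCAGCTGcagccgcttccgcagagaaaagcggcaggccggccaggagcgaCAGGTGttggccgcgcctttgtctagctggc
Dll3, shared, chr7:29087291-29087391: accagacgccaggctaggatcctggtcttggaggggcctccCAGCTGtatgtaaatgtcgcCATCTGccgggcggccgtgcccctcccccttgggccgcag
Id1, shared, chr2:152549731-152549831: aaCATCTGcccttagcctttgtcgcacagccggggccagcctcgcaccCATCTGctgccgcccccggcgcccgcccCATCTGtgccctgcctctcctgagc
Cib2, iGPA only, chr9:54400424-54400524: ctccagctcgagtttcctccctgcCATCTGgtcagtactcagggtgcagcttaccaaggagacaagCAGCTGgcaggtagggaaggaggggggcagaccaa
Myo6, iGPA only, chr9:80072081-80072181: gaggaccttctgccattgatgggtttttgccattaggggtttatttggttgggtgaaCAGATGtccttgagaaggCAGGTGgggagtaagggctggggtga
Tmc1, iGPA only, chr19:21111788-21111888: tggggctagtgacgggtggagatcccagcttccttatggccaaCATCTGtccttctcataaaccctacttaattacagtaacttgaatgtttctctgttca
Hes6, iGPA only, chr1:93304554-93304654: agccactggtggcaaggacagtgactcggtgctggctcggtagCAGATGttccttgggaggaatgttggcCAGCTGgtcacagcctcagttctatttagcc
Tmc1, iP+A only, chr19:20941881-20941981: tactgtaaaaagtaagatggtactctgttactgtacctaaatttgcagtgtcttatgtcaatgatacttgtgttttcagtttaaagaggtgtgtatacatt
Runx1, iP+A only, chr16:92778550-92778650: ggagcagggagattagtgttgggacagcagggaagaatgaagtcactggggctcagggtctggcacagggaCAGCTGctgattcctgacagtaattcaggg

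Several summits with the highest −log10 p of their class held a second kind of sequence, a tandem repeat with a unit longer than 12 bp. They are shown because such a repeat can place many E-boxes under 1 peak. The fourth, the strongest iP+A only site, has no such repeat.
Dnahc2, shared, chr11:69273538-69273638: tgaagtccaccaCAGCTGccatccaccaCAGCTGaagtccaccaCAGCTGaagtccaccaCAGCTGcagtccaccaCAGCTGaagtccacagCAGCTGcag
6720456H20Rik, shared, chr14:49095441-49095541: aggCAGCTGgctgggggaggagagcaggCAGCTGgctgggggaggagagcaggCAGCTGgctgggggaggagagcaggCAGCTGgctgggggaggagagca
Lypla1, iGPA only, chr1:4825482-4825582: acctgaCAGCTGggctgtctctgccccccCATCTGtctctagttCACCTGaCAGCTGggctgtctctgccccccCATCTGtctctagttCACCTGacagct
2410004I01Rik, iP+A only, chr11:102818382-102818482: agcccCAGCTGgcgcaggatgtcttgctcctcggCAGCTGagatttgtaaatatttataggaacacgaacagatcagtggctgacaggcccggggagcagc
The unit was 16 bp at Dnahc2, 25 bp at 6720456H20Rik and 45 bp at Lypla1, and all 4 sites lie in introns. Within the printed bases there were 6, 4 and 6 E-boxes at these repeats and 2 at 2410004I01Rik, where the iP+A fold was 15.5. In the iP+A list the Dnahc2 site had a fold enrichment over background of 45.7, and in the iGPA list 72.1. At the Lypla1 site, which the iP+A list lacked, the iGPA value was 26.3. Tandem units of up to 50 bp covered 2.12% of shared, 1.88% of iP+A only and 1.83% of iGPA only sites. Among sites with a −log10 p of 50 or more they covered 9 of 15 iP+A only and 6 of 44 iGPA only sites. Of the 296 shared sites that reached 50 in both lists, a stricter limit, they covered 39.

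Of 18745 Atoh1 sites of iP+A, 57.7% (95% interval 56.9 to 58.4) were shared, and of 25893 sites of iGPA 41.7% (41.1 to 42.3) were shared. By chromosome, the share of iP+A sites ranged from 30.7% on X and 39.5% on chromosome 14 to 70.1% on chromosome 11, with a median of 60.7%. The share of iGPA sites ranged only from 36.0% to 44.5%. Both summits of a shared site lay close together, with a median distance of 25 bp (quartiles 11 and 52), and 74.2% of them were within 50 bp.

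Class followed strength. The fold enrichment of shared sites had a median of 3.44 in the iP+A list (quartiles 2.90 and 4.41), against 2.90 (2.69 and 3.23) for iP+A only sites. In the iGPA list the medians were 4.43 (3.32 and 6.52) for shared and 3.20 (2.94 and 3.82) for iGPA only sites. These values are part of what put a peak in a list and are a description. Below a −log10 p of 5, 28.7% of iP+A sites and 17.6% of iGPA sites were shared. The share reached 91.8% and 79.2% for values of 20 to 50, and 96.2% and 96.4% for 50 and over. A −log10 p of 20 or more was found at 151 iP+A only sites (1.90%) and at 729 iGPA only sites (4.83%). Most sites of a single list were thus weak peaks of that list, and fewer of the stronger sites were iP+A only than iGPA only.

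**Figure D1:**
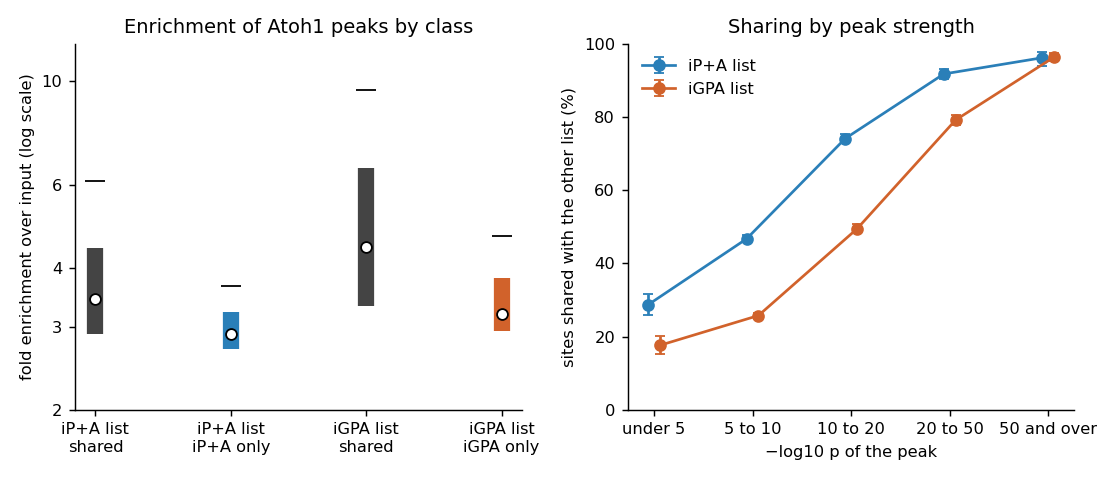
Left, fold enrichment over input (log axis) of Atoh1 peaks by list and class, with quartiles as bars, medians as circles and the 90th percentile as dashes. Right, percent of sites shared with the other list by −log10 p, with exact 95% intervals, from 28.7% to 96.2% in iP+A and from 17.6% to 96.4% in iGPA.

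At the 10807 shared sites, fold enrichment was higher in iGPA at 8261 (76.4%). The median ratio of iGPA to iP+A was 1.26 (quartiles 1.01 and 1.63), and across these sites the log2 folds had a Pearson correlation of 0.656 and a Spearman correlation of 0.536. The lists were not scaled to each other. The most frequent background under a peak, recovered from the fold and the −log10 p, was 8.30 fragments in iP+A and 7.13 in iGPA, and its part in the ratio was not tested.

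Gfi1 peaks were most frequent at shared sites. Of all 33831 sites, 1470 (4.35%) held a peak of the Gfi1 list. Among shared sites 907 did (8.39%, 7.88 to 8.93), among iP+A only sites 158 (1.99%, 1.69 to 2.32) and among iGPA only sites 405 (2.68%, 2.43 to 2.955). Shared sites exceeded iP+A only sites by 6.40 percentage points (5.80 to 7.01) and iGPA only sites by 5.71 points (5.13 to 6.30), on 20 of 20 chromosomes in each case. The 2 classes of single-list sites differed by 0.694 points (0.281 to 1.09), with iGPA only higher on 14 of 20 chromosomes. When both lists were limited to peaks with a −log10 p of 10 or more, this last order turned, with 5.67% for iP+A only and 4.29% for iGPA only sites. The same 2 strong lists gave 13.4% for shared sites.

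Stronger Atoh1 peaks held Gfi1 peaks more often, and the gap to shared sites remained at matched strength. For iGPA −log10 p values of 5 to 10, 10 to 20 and 20 to 50, a Gfi1 peak lay at 5.05%, 6.15% and 10.1% of shared sites and at 2.29%, 3.53% and 5.26% of iGPA only sites. At 50 and over, the share was 21.1% for shared sites, and iGPA only had just 44 sites there (9.09%). Binned by iP+A strength over the same 3 ranges, shared sites had 4.47%, 8.6% and 15.5%, and iP+A only sites 1.65%, 3.74% and 5.15%. The strongest shared sites of iP+A, at 50 and over, held a Gfi1 peak at 34.6%.

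**Figure D2:**
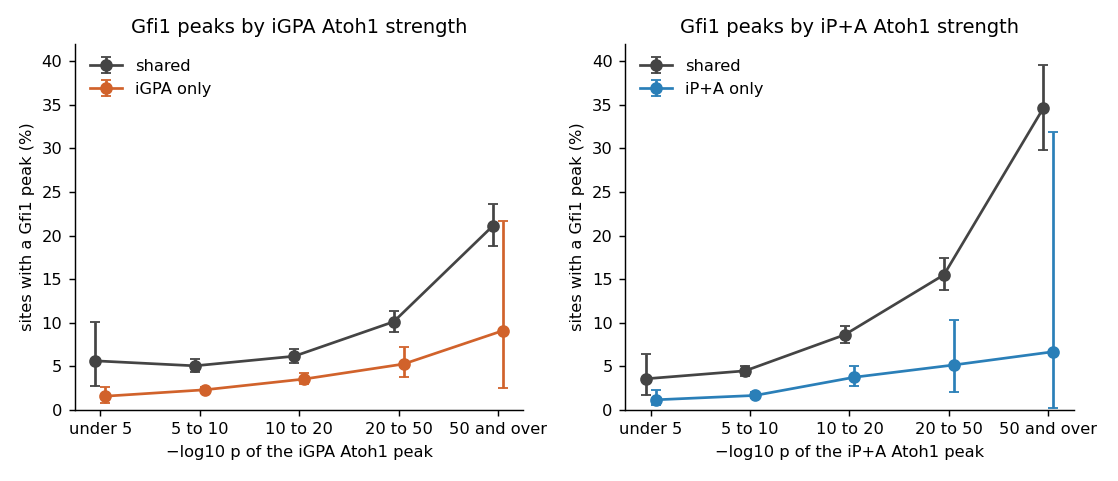
Percent of Atoh1 sites with a Gfi1 peak by −log10 p of the iGPA Atoh1 peak (left) or of the iP+A Atoh1 peak (right), with exact 95% intervals. Shared sites lie above single-list sites in each bin, and the last bin of the single-list classes holds 44 and 15 sites.

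The Gfi1 share varied with position, in opposite directions between classes. Within 1 kb of a transcription start, 5.82% of shared sites held a Gfi1 peak, against 9.42% farther away. For iP+A only sites the values were 3.53% near a start and 1.6% farther away, and for iGPA only sites 4.21% and 2.15%. A Pou4f3 peak of iGPA at the same site went with more Gfi1 peaks in every class, at 15.7% against 6.21% of shared, 3.9% against 1.84% of iP+A only and 6.88% against 2.23% of iGPA only sites. Fold enrichment of Atoh1 in iGPA over iP+A was little different at shared sites with a Gfi1 peak (median ratio 1.31, higher in 75.4%) and without (1.26, higher in 76.5%). In the strongest iP+A bin, at 50 and over, the medians were 1.46 for 133 sites with and 1.20 for 251 sites without a Gfi1 peak.

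Seen from the 3012 Gfi1 peaks, 902 (29.9%) lay at shared sites, 154 (5.11%) at iP+A only sites, 395 (13.1%) at iGPA only sites and 1561 (51.8%) at none. The Gfi1 pattern, AATCACAGC or AATCACTGC on either strand in the 250 bp around the summit, was found in 3.88%, 8.44% and 4.05% of those at the 3 classes and in 9.42% of those away from Atoh1. AtEAM was found at 20.6% of shared sites with a Gfi1 peak and at 20.6% of those without. In iGPA only sites it was rarer with a Gfi1 peak (35 of 405, 8.64%) than without (17.96%), and in iP+A only sites likewise (6 of 158, 3.80%, against 9.09%). Of the single-list sites with a Gfi1 peak, 36.1% of iP+A only and 40.5% of iGPA only lay within 1 kb of a start, against 19.7% of shared ones.

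The sites with the second strongest Gfi1 peak of each class are shown because only 2 of the 3 contain a Pou4f match and none holds the Gfi1 pattern.
Irx5, shared, chr8:94984404-94984504: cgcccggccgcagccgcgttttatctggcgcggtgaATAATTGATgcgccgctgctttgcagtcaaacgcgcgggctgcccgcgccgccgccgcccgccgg
Tnks1bp1, iGPA only, chr2:84888008-84888108: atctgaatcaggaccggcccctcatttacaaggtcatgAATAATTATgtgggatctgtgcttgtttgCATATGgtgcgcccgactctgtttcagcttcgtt
Aurkb, iP+A only, chr11:68854864-68854964: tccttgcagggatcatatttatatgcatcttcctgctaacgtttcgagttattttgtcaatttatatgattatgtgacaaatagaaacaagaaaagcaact
The Irx5 site lies 102.8 kb from the start of this homeobox gene and had Gfi1 fold enrichment of 16.7, with Atoh1 at 4.63 in iP+A and 7.14 in iGPA. Near Tnks1bp1, 0.121 kb from a start, the Gfi1 value was 22.2 and Atoh1 reached 9.60 in iGPA alone. The site 4.24 kb from Aurkb, a mitotic kinase gene, had a Gfi1 value of 22.4 and a weak Atoh1 peak in iP+A of 2.90. A Gfi1 value of 219.7, the highest of all, lay 20.2 kb from Siah2, with an Atoh1 value of 3.08 in iGPA.

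The lines without Pou4f3 offered lists that the classes did not use. Atoh1 was also mapped in iAtoh1, which made Atoh1 alone, and in iG+A, which made Gfi1 and Atoh1. Shared sites were in the iAtoh1 list at 51.7% and in the iG+A list at 56.8%. Sites of iP+A only were in these lists at 25.9% and 21.4%, and sites of iGPA only at 16.5% and 30.4%. At least 1 of the lists reached 66.2% of shared sites, 37.3% of iP+A only and 37.2% of iGPA only sites, and the last 2 shares differed by −0.109 points (−1.43 to 1.20). Both single-list classes were thus reached by the lines without Pou4f3 at shares close to each other, iP+A only sites more by iAtoh1 and iGPA only sites more by iG+A.

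Among sites in exactly 1 of the 2 lists, the share in iG+A was 41.9% of 2164 iP+A only sites (39.8 to 44.0), 60.7% of 2596 shared sites (58.8 to 62.6) and 75.5% of 4135 iGPA only sites (74.1 to 76.8). The difference between iGPA only and iP+A only was 33.6 points (31.1 to 36.0), and each of the 3 class differences had the same sign on 20 of 20 chromosomes. Because the iG+A list is longer (20504 against 15568 peaks), it was cut to the same length by −log10 p, which gave 32.3%, 50.1% and 66.9% in the same order. The split was wider at stronger sites of a single list. In iGPA only sites the share went from 62.4% below a −log10 p of 5 to 91.8% at 20 to 50, and at 50 and over all 13 sites were in iG+A. In iP+A only sites it went from 44.8% to 16.7% over the same ranges, where 40 of 48 sites were in iAtoh1, and at 50 and over 2 of 3 sites were in iG+A. Within 1 kb of a start all classes leaned to iG+A, with 65.3% for iP+A only, 70.0% for shared and 78.5% for iGPA only sites. Of the 3121 iGPA only sites in iG+A and not in iAtoh1, 132 (4.23%) held a Gfi1 peak. With the Gfi1-bearing sites left out, the iGPA only share was 75.4%. This step could move the share little, since the Gfi1 list of 1 library reached only 2.68% of iGPA only sites. The 4 lists came from separate libraries, and the counts were examined after the classes were formed.

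**Figure D3:**
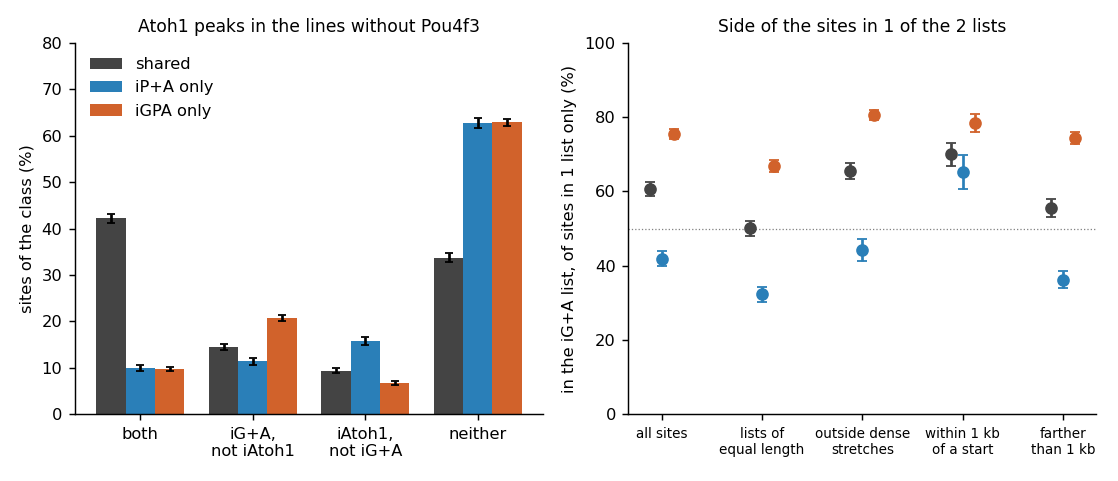
Left, percent of each class (bars, exact 95% intervals) found in both, 1 or neither of the Atoh1 lists of iAtoh1 and iG+A. Right, of the sites in exactly 1 of these lists, the percent in iG+A, for all sites and 4 subsets, with a dotted line at 50%. The order iP+A only, shared, iGPA only holds in all 5 columns, with the values for all sites at 41.9%, 60.7% and 75.5%.

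Pou4f3 peaks followed the line of the Atoh1 site mainly at iP+A only sites. The Pou4f3 list of iP+A reached 24.9% of shared, 20.5% of iP+A only and 9.01% of iGPA only sites. The Pou4f3 list of iGPA reached 22.9%, 7.43% and 9.83%. These lists held 17082 peaks in iP+A and 18751 in iGPA, and at iGPA only sites their shares were close. Of sites in exactly 1 of these Pou4f3 lists, iGPA was the list for 15.6% of iP+A only (235 against 1269 sites), 44.4% of shared and 54.1% of iGPA only sites. Pou4f3 and Atoh1 were pulled down from the same lines here. In stretches of 100 kb with at least 10 Atoh1 sites, described below, the iP+A and iGPA lists reached 29.3% and 5.38% of iP+A only sites. Outside them the shares were 16.0% and 8.47%. For shared sites the values were 35.9% and 16.3% inside and 22.8% and 24.1% outside. Of the Pou4f3 lists of lines without Atoh1, iPou4f3 was at 20.4%, 14.5% and 11.4% and iG+P at 24.7%, 26.2% and 15.9%. For iG+P, shared minus iP+A only was −1.56 points (−2.83 to −0.298), although shared was higher on 12 of 20 chromosomes.

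Sequence was searched in 250 bp centred on the summit, and flanking windows as long, 1000 bp away on both sides, gave the local background. AtEAM was present at 20.6% of shared summits, 8.98% of iP+A only and 17.7% of iGPA only summits, with 2.03%, 2.25% and 2.15% in the flanks. It sat close to the summit, with a median distance of 16 bp at shared, 27 bp at iP+A only and 17 bp at iGPA only sites. The AtEAM difference of iGPA only over iP+A only was 8.73 points (7.85 to 9.60), on 20 of 20 chromosomes. Shared exceeded iGPA only by 2.89 points (1.91 to 3.86), on 15 of 20. With all called peaks in place of the kept ones that second order turned, with 15.6% for shared and 17.3% for iGPA only sites. It also depended on strength. For iGPA −log10 p values of 5 to 10, 10 to 20 and 20 to 50, iGPA only sites had 15.8%, 22.6% and 30.5%, and shared sites 14.2%, 20.9% and 25.5%. Sites of iP+A only had 8.31% below an iP+A −log10 p of 5, then 8.92%, 9.64% and 8.82% over the next 3 ranges, and 13.3% (2 of 15) at 50 and over.

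The E-box CAGCTG occurred at 54.2% of shared, 24.98% of iP+A only and 45.6% of iGPA only summits (flanks 12.1%, 10.1% and 12.1%). For CAGATG the values were 44.3%, 28.8% and 40.5% (flanks 18.3%, 18.2% and 18.5%). CACCTG ordered the classes differently from these 2 kinds. It was present at 24.2% of shared summits (flank 18.1%), at 15.8% of iP+A only (flank 16.5%) and at 30.3% of iGPA only summits (flank 18.7%). The iGPA only share was 6.07 points above shared (4.97 to 7.15) and 14.5 points above iP+A only (13.4 to 15.6), both on 20 of 20 chromosomes. With strength it went from 25.5% at iGPA only sites below a −log10 p of 5 to 43.5% at 20 to 50, whereas shared sites went from 17.98% to 26.6%. The other 7 kinds of E-box lay nearer to the flank level or below it, for example CATATG at 7.19% against 5.68% and CACGTG at 4.41% against 3.37% in iGPA only sites. CACCTG and its follow-up were chosen after the shares of all 10 kinds had been seen.

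**Figure D4:**
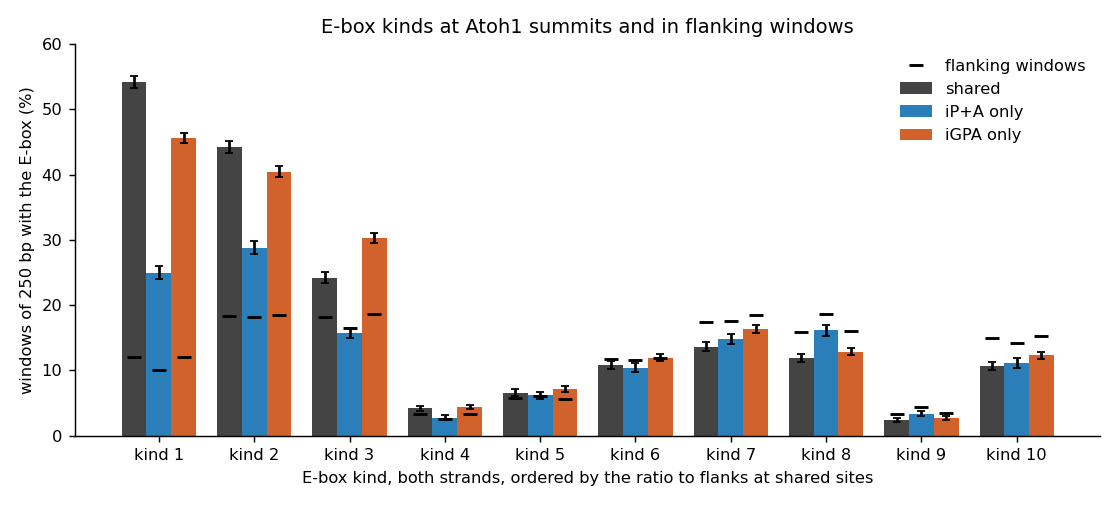
Percent of 250 bp windows at Atoh1 summits with each of the 10 kinds of E-box (bars, exact 95% intervals) and in the flanking windows (black dashes), by class. Kind 1 is CAGCTG, kind 2 is CAGATG and kind 3 is CACCTG, where the iGPA only bar (30.3%) is the tallest of the 3 classes.

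The Pou4f pattern was ATAATTAAT with at most 1 mismatch on either strand. Over the 250 bp it was near its flank level except in shared sites. It was at 10.9% against 8.19% there, 9.71% against 9.37% in iP+A only and 8.12% against 8.06% in iGPA only sites. Without mismatch ATAATTAAT was rare but above its flank in each class, at 0.879% against 0.287%, 0.592% against 0.422% and 0.610% against 0.375%. The intervals of summit and flank overlapped only for iP+A only sites. Where a Pou4f3 peak of iGPA was present, the pattern with 1 mismatch allowed was found at 30.9% of shared, 26.8% of iP+A only and 32.6% of iGPA only sites. Elsewhere it was at 5.00%, 8.34% and 5.45%. AtEAM was rarer with a Pou4f3 peak of iGPA, at 17.4%, 6.95% and 9.44%, than without, at 21.5%, 9.15% and 18.6%. Split by the Pou4f3 list of iP+A instead, AtEAM was at 12.9%, 4.56% and 5.37% with a peak and at 23.2%, 10.1% and 18.9% without. Few Atoh1 sites held the Gfi1 pattern. It was at 47 shared sites (0.435%, flank 0.500%), 77 iP+A only sites (0.970%, flank 0.498%) and 41 iGPA only sites (0.272%, flank 0.471%). The difference of iGPA only minus iP+A only was −0.698 points (−0.949 to −0.482), and iGPA only was higher on 1 of 20 chromosomes.

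**Figure D5:**
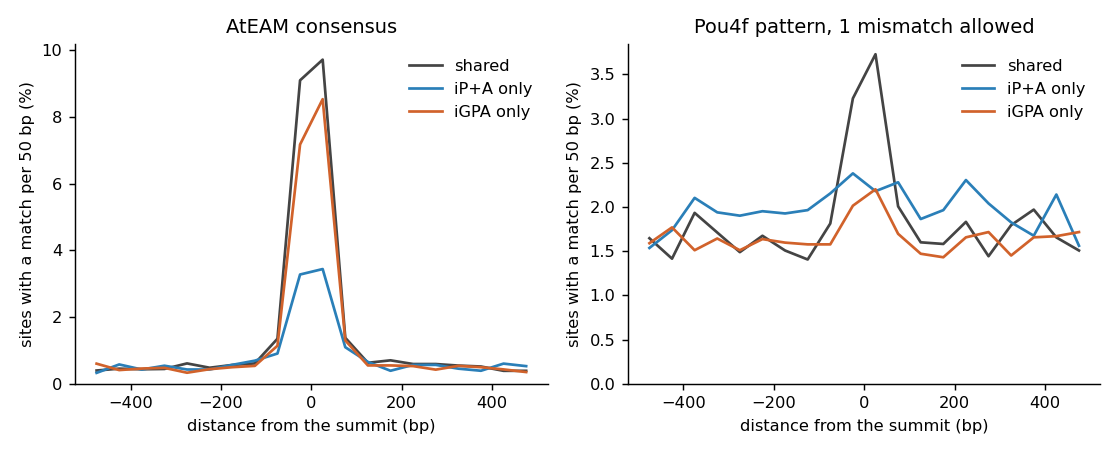
Percent of sites with a match per 50 bp, by distance from the Atoh1 summit in bp, for the AtEAM consensus (left) and the Pou4f pattern with 1 mismatch (right). AtEAM reaches 9.72% in the 50 bp next to shared summits, 8.53% for iGPA only and 3.44% for iP+A only.

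Base composition differed as well. Median GC content was 53.6% at shared, 46.8% at iP+A only and 52.4% at iGPA only summits (flanks 46%, 43.6% and 46%), and GGGCGG was found at 22.6%, 13.8% and 18.9% (flanks 6.95%, 5.14% and 6.89%). The 6-base words with the highest ratio of summit to flank were CpG-rich in every class and were no E-boxes. AGATAA, the core word of GATA factors, was at 12.1% of shared, 15.4% of iP+A only and 9.88% of iGPA only summits (flanks 12.9%, 14.7% and 13.1%).

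Sites within 1 kb of a transcription start made up 28.5% of shared, 20.3% of iP+A only and 25.9% of iGPA only sites. Introns held 33.0%, 31.4% and 34.9%, and intergenic DNA 35.2%, 45.2% and 35.4%. Coding exons held 1.48%, 1.27% and 1.64%. Near starts, shared exceeded iP+A only by 8.11 points (6.88 to 9.33), on 19 of 20 chromosomes.

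A further difference was crowding. Of the 33831 sites, 6751 (20.0%) lay in 298 stretches of 100 kb that held at least 10 Atoh1 sites. They included 33.7% of iP+A only sites, 16.1% of shared and 15.5% of iGPA only sites, and 896 of the iP+A only ones were on chromosome 14. The densest stretch, chr13:12900001-13000000 at Prl2c3 of the prolactin gene family, held 39 shared, 45 iP+A only and 43 iGPA only sites. In such stretches the local background of the caller was above its most frequent value at 37.5% of iP+A only and 41.7% of shared peaks in iP+A, against 5.17% and 4.14% elsewhere. In the iGPA list it was above it at 49.1% of iGPA only and 57.2% of shared peaks, against 8.21% and 11.7% elsewhere. AtEAM was found in the stretches at 8.34% of shared, 2.92% of iP+A only and 6.50% of iGPA only sites. Outside the stretches 63.3% of iP+A sites were shared, and AtEAM was at 22.9%, 12.1% and 19.8% of the 3 classes. The Gfi1 share outside was 8.31%, 2.13% and 2.38%, and the share in iG+A of sites in 1 list was 65.4% for shared, 44.3% for iP+A only and 80.5% for iGPA only.

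Each site was assigned to the gene with the nearest transcription start. Of 22225 annotated protein-coding genes, 5375 (24.2%) had a shared site, 3313 (14.9%) an iP+A only site and 6878 (30.9%) an iGPA only site. In all, 10611 genes had a site, 3380 of them with iGPA only sites and no other. Of the genes with an iGPA only site, 39.9% also had a shared one, and of those with an iP+A only site 44.0% did. The median length of DNA nearest to a gene's starts is given beside each list, and it was 34.4 kb over all protein-coding genes.

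Genes of the hair bundle, of mechanotransduction and of the hair cell synapse had iGPA only sites at 20 of 40 (50%), shared sites at 12 (30%) and iP+A only sites at 10 (25%), with a median of 78.6 kb. The iGPA only share was above the background of 30.9%, as were the other 2 above theirs. The strongest iGPA only sites of the list were at Cib2, which encodes a calcium-binding partner of the transduction channel (fold 11.1, intron, 7.55 kb from the start), and at Myo6, an unconventional myosin (9.97, intron, 6.69 kb). Both had AtEAM within the window and were in the iAtoh1 and iG+A lists too, so the iP+A list alone lacked them. Tmc1, a pore-forming subunit of the transduction channel, had an iGPA only site 83.1 kb away with a value of 5.41, in iG+A and not in iAtoh1. It also had an iP+A only site in an intron, at 3.33, in iAtoh1 and not in iG+A, and the printed sequence of that summit holds no E-box. Myo7a, the motor protein most used as a hair cell marker, had 5 iGPA only sites and none of the other classes. Other genes of the list differed from it. Cdh23 had 4 shared and 4 iGPA only sites, Myo6 had 1 iP+A only and 3 iGPA only, and Espn had 1 of each single-list class. Otof, Strc and Slc17a8 had no site of any class. Shared sites of the list were led by Clrn1 (8.18 in iP+A and 9.35 in iGPA), Calb2 (6.24 and 9.23, with a Gfi1 peak of 5.94) and Ctbp2, which encodes a ribbon component (6.13 and 8.37). The Clrn1 summit lies in a tandem repeat with a unit longer than 12 bp, and 9 E-boxes lie within 50 bases to either side of it. The part of this repeat in the Clrn1 peak was not tested.

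Among 20 regulators of hair cells, 14 had iGPA only, 11 shared and 7 iP+A only sites (70%, 55% and 35%, median 60.3 kb). The promoter of Nhlh1, a helix-loop-helix gene, was bound in both lines with a fold of 21.4 in iP+A and 40.9 in iGPA, and held a Gfi1 peak of 3.27. Prox1 followed at 5.59 and 10.95, 80.02 kb from its start, and Isl1 at 4.95 and 7.72. The Atoh1 gene had a shared peak of 4.84 and 5.41 with its summit inside an exon, 0.413 kb from the start, so the gene and the transgene cannot be told apart there. Summits in Atoh1 exons were kept in all 7 lists of lines with the Atoh1 transgene, Pou4f3 and Gfi1 lists included, and in neither of the lists of iPou4f3 and iG+P, which lack it. In exons of Atoh1, Pou4f3 and Gfi1 each list kept 0 to 2 summits, with values of at most 6.79. Exon summits made 1 shared and 1 iGPA only site at Gfi1, and 1 iP+A only and 1 iGPA only site at Pou4f3. The counts of regulators above include these genes. Where a line carries that transgene, gene and transgene cannot be told apart at such sites. The iP+A line has no Gfi1 transgene but kept 1 summit in a Gfi1 exon, at 3.01. Barhl1, Ikzf2 and Nhlh1 had iGPA only sites of 5.17, 4.31 and 5.29. Prox1, Lhx3 and Eya1 had iP+A only sites of 4.23, 3.66 and 3.12, and each of these genes also had at least 1 iGPA only site.

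Genes of the Notch pathway had shared sites at 17 of 25 (68%), iGPA only sites at 19 (76%) and iP+A only sites at 7 (28%), with a median of 41.98 kb. Hes6, a Hes family member that opposes Hes1, had a shared promoter site of 20.7 in iP+A and 28.8 in iGPA with a Gfi1 peak of 5.28. It also had an iGPA only site 5.18 kb away (7.63, with AtEAM). The ligand gene Dll3 had a shared promoter site of 11.4 and 23.0, and Dll1 a shared intergenic site of 8.39 and 10.8 with a Gfi1 peak of 6.60, 25.1 kb from the start. At Heyl, a Hey family repressor, the shared site 5.13 kb from the start had 8.28 and 9.97. Jag2 (6.77), Hes5 (5.17) and Lfng, a modifier of Notch receptors (4.76), also had iGPA only sites. The strongest iP+A only sites were weaker, at Jag1 (3.66), Hes1 (3.23), Hey2 (3.12) and Hey1 (2.90).

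Neuronal genes had shared sites at 15 of 30 (50%), iGPA only at 15 (50%) and iP+A only at 7 (23.3%), with a median of 100.9 kb. Tubb3, a neuronal tubulin, had a shared intron site of 8.71 in iP+A and 11.3 in iGPA with a Gfi1 peak of 5.50, and Cntn2, an axonal adhesion protein, one of 6.12 and 11.7. Cntn2 and Ebf2 led the iGPA only sites with 6.77 and 6.11, and the start of Elavl2 led the iP+A only sites with 4.30. In the sensory neuron list, shared sites were at 8, iGPA only at 7 and iP+A only at 4 of 19 genes (42.1%, 36.8% and 21.1%, median 100.3 kb). Pou4f1 had a shared promoter site of 4.63 and 6.65, and 5.46 kb away an iP+A only site of 3.33 that held a Gfi1 peak of 10.1 and peaks of all 4 Pou4f3 lists. An intron of Runx1 held an iP+A only site of 6.24, which was in the iAtoh1 and iG+A lists as well.

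Of 24 blood regulators known with Gfi1, 16 had iGPA only, 14 shared and 7 iP+A only sites (66.7%, 58.3% and 29.2%, median 47.0 kb). Id1, an inhibitor of helix-loop-helix factors, had a shared site 12.2 kb from its start at 11.6 in iP+A and 23.9 in iGPA, with a Gfi1 peak of 3.95. Id3 and Id2 had shared sites of 6.56 and 8.98, and of 4.77 and 8.00. All 6 lists had iGPA only shares above 30.9% and iP+A only shares above 14.9%, and all had more surrounding DNA than the median gene, whose part in these counts was not tested.

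By number of sites per gene name, many-copy small RNA names came first in each class, led by U6 with 194 shared, 190 iP+A only and 330 iGPA only sites over the genome. Among protein-coding genes, chosen after these names were seen, Prl2c3 had the most in all 3 classes (54 shared, 60 iP+A only and 46 iGPA only). Gse1 had 22 shared, 2 iP+A only and 14 iGPA only sites, and Fam92b beside it on chromosome 8 had 15, 0 and 13. Auts2, a neuronal gene, had 14, 9 and 9 sites, and Gm2964 on X had 7, 31 and 11. Values at Prl2c3 were low, with a highest fold of 4.63 in iP+A and 4.43 in iGPA, whereas Gse1 reached 11.3 and 18.9 and Fam92b 18.8 and 18.1.

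The pair iAtoh1 and iG+A, which differs by Gfi1 in the absence of Pou4f3 and shares no Atoh1 library with the first pair, was set beside these classes. Its 27505 sites comprised 7956 shared ones, 52.0% of iAtoh1 and 39.5% of iG+A sites. A Gfi1 peak of iGPA lay at 7.32% of its shared, 2.42% of its iAtoh1 only and 3.38% of its iG+A only sites, and AtEAM at 20.3%, 9.45% and 13.5%. The gain of AtEAM on the side with Gfi1 over the side without was 4.01 points (3.10 to 4.90) there and 8.73 points (7.85 to 9.60) between iGPA only and iP+A only sites. For CACCTG the side with Gfi1 exceeded the side without by 5.50 points (4.34 to 6.64) there, on 19 of 20 chromosomes, and by 14.5 points (13.4 to 15.6) between iGPA only and iP+A only sites. CACCTG was at 22.4% of shared and 23.1% of iG+A only sites, a difference of 0.691 points (−0.497 to 1.87) on 12 of 20 chromosomes, against 6.07 points (4.97 to 7.15) for iGPA only over shared. The median fold ratio at shared sites was 1.09, higher in iG+A at 64.9%, against 1.26 and 76.4% for iGPA over iP+A.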

How the data were processed

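Groups came from the sample titles. The name of the list for 3 factors, and nothing else, ties it to iGPA. The authors used Trimmomatic on the reads and Bowtie 2 with mm9 for alignment. Duplicates, poorly mapped reads and the ENCODE blacklist were filtered out, and MACS 2 then compared merged replicates with merged inputs. The deposited fold enrichment is a ratio of ChIP signal at the summit to local background, and the deposited −log10 p is the caller's. The deposited summit lists name the peaks the authors kept. Of the called peaks, 28.6% in iP+A and 17.2% in iGPA were left out of them by a filter that is not given in the sources used here. Read depth is unknown, and the background per peak was recovered from the fold and −log10 p (tolerance 0.01) for 99.9% of the peaks of either list.

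Windows of 300 bp on summits were joined at 1 bp of overlap. A shared site was represented by its iGPA summit. Both strands of the NCBIM37 genome were scanned for patterns, and transcription starts came from the GENCODE annotation given with that build. Sites in tandem repeats had at least 80% of the positions in 100 bp equal to the position 1 unit on, for units of up to 12 bp. Named sites were the 3 strongest and the 2 with the strongest Gfi1 peak in each class outside chromosome 18 and such repeats. Named genes were the 6 with the most sites and up to 4 per gene list and class with the highest −log10 p. Myo7a, Espn, Otof, Strc and Slc17a8 were named outside this choice. A gene of 2 lists counted in both. Some sites that this rule names are not reported here. The classes, lists and patterns were chosen with earlier results of these data known. Dense stretches, sites in 1 of 2 lists, longer repeat units, CACCTG and the ranking of protein-coding genes were added after values were seen. No set test or resampling was done. Python 3.11.15 with numpy 2.4.6, pandas 2.3.3, scipy 1.17.1 and statsmodels 0.14.6 was used, and the scripts were tested on simulated sites and planted patterns.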

Additional observations from a re-analysis of the deposited data

Results flagged for a closer look

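Peaks that the caller reported but the authors did not keep gave a signal outside the lists used above. Of the 7938 iP+A only sites, 812 (10.2%, 9.57 to 10.9) held such a peak of iGPA, and of the 15086 iGPA only sites, 1181 (7.83%, 7.40 to 8.27) held such a peak of iP+A. These sites belong to a single list only because the peak of the other line was not kept. The left-out peaks at them had a median −log10 p of 5.93 in iGPA and 6.16 in iP+A, below the medians of 9.19 and 7.76 of the kept peaks. Why they were left out was not tested.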

How the results depend on the processing

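No paired analysis was possible because replicates were merged before peaks were called, and for the same reason leaving out a replicate was not possible. Depth is unknown, so a peak absent from a list cannot be told apart from one below its detection. Of the shares recomputed under the alternatives, 70 moved by less than their counting interval and 89 by more. The order of the classes held under 6 of 6 alternatives for the share in iG+A, 5 of 5 for CACCTG, 7 of 8 for Gfi1 peaks, 6 of 7 for AtEAM, 6 of 7 for the Pou4f pattern and 7 of 7 for starts. It turned for Gfi1 peaks at a −log10 p of at least 10 (iP+A only above iGPA only), for AtEAM with all called peaks (iGPA only at 17.3 above shared at 15.6) and for the Pou4f pattern without mismatch (iGPA only above iP+A only). The cause of the moves below was not tested except where the alternative itself sets the value (a looser pattern, a wider window or fewer peaks).

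Values below are percentages, and those of classes are named in the order shared, iP+A only, iGPA only. With 1000 bp windows, 65.2 of iP+A and 46.4 of iGPA sites were shared, AtEAM was at 10.9 of iP+A only and 19.7 of iGPA only sites, and CACCTG at 31.7, Gfi1 peaks at 2.31 and the share in iG+A at 79.04 of iGPA only sites. Sites within 1 kb of a start then made up 18.96 of iP+A only and 23.6 of iGPA only sites. With 100 bp windows 50.7 and 36.6 of the sites of iP+A and iGPA were shared, and with full called intervals 56.9 and 41.1.

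With all called peaks, 59.3 and 49.4 were shared. AtEAM was at 15.6 of shared and 7.20 of iP+A only sites and the Pou4f pattern at 9.89 and 8.47, while shared sites had CACCTG at 22.3, a Gfi1 peak at 6.87, a start within 1 kb at 25.6 and 57.6 in iG+A. Gfi1 peaks were at 2.19 of iGPA only sites.

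With a −log10 p of at least 10 in both lists, 65.05 and 38.99 were shared, AtEAM was at 25.3, 11.5 and 23.4, the Pou4f pattern at 11.8, 11.6 and 8.79, and Gfi1 peaks at 13.4, 5.67 and 4.29. Starts lay within 1 kb at 25.2, 12.3 and 23.7. For iP+A only and iGPA only sites, CACCTG was at 14.2 and 33.2 and the share in iG+A was 34.3 and 79.5.

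With the longer list cut to the shorter, 49.99 and 49.8 were shared, and Gfi1 peaks were at 8.94, 2.43 and 3.13. AtEAM was at 21.96 of shared and 20.4 of iGPA only sites, starts lay within 1 kb at 22.1 of iP+A only and 22.9 of iGPA only sites, and iGPA only sites had CACCTG at 32.5 and 78.5 in iG+A.

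Outside dense stretches, an alternative chosen after seeing the data, 63.3 of iP+A sites were shared, AtEAM was at 22.9, 12.1 and 19.8, starts within 1 kb at 31.01, 26.4 and 27.9, and the share in iG+A was 65.4, 44.3 and 80.5. CACCTG was at 25.1 of shared and 31.5 of iGPA only sites, the Pou4f pattern at 8.74 of iP+A only and Gfi1 peaks at 2.38 of iGPA only sites.

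A looser set of E-boxes in place of AtEAM gave 80.6, 49.8 and 71.9, and the Pou4f pattern without mismatch 0.879, 0.592 and 0.610. Gfi1 peaks of −log10 p of at least 10 were at 3.78, 0.554 and 1.00. A distance of 5 kb gave 43.7, 36.9 and 42.5 near starts, and protein-coding starts alone 26.3, 18.03 and 24.02. With the iG+A list cut to the length of the iAtoh1 list the share in iG+A was 50.1, 32.3 and 66.9.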
